A study of Mus musculus with 27 samples.

Results

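The expressed solute carrier genes were 99 of the 38123 genes measured in mouse embryonic stem cells losing Dicer, the ribonuclease that cuts microRNA precursors. They were chosen by name and by level: protein-coding genes whose symbol starts with Slc, with a mean of at least 5 FPKM over the 15 whole cell libraries. FPKM is a fragment count corrected for the length of the transcript and the size of the library, so it ranks genes within a library and carries no absolute amount. Of 384 protein-coding Slc genes, 4 were left out by name (Slc2a1, Slc25a31, Slc38a4 and Slc22a18), and the level took 99 of the remaining 380. The cells were the XY line DTCM23/49, in which all groups carry the conditional Dicer allele, and the deletion of the RNase III domain was induced with 800 nM 4-hydroxytamoxifen. Ethanol-treated cells served as controls, but no library after day 0 is labelled as one, so loss of Dicer, the drug, time and expansion cannot be told apart. Whole cells were sampled before induction (day 0) and on days 4, 8, 10 and 12, and nuclear and cytoplasmic fractions on days 12 and 0, with 3 biological replicates in each of the 9 groups. Dicer-deficient colonies were picked and expanded, so a later day holds passaged cells and not the culture of day 0 followed in place. Polyadenylated RNA was sequenced, and transcripts without a tail were not measured.

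Solute carriers are membrane proteins that move small molecules across a membrane, downhill or coupled to an ion gradient. The Slc25 family sits in mitochondria and passes nucleotides, phosphate, metabolic acids, amino acids and cofactors between the cytosol and the matrix, while other families carry amino acids, sugars, lactate, vitamins and ions across the plasma membrane. A further group works in the membranes of the Golgi, endoplasmic reticulum, lysosome and peroxisome, among them the Slc35 carriers that bring nucleotide sugars to the enzymes of glycosylation. Mouse embryonic stem cells are known for rapid glycolytic growth and a high demand for amino acids.

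By textbook location, 22 members were mitochondrial Slc25 carriers, 42 plasma membrane carriers and 19 carriers of internal membranes. The peroxisomal Slc25a17 counts among the last. Another 12 had a mixed or unclear location, and 4 carry an Slc symbol without being carriers (the scaffolds Slc9a3r1 and Slc9a3r2, and Slc4a1ap and Slc7a6os). The level of 5 FPKM was what chose the members, so levels are given as a description. Just inside it stood Slc8b1 at 5.014, Slc37a1 at 5.02 and Slc35c1 at 5.055 FPKM, and just outside it Slc9b1 at 4.93 and Slc35a2 at 4.669 FPKM. On all 5 days 78 members had a mean of at least 5 FPKM, and 21 were under it on at least 1 day and depend for their place on other days. None was listed at 0 in any library, and all 99 entered both fits.

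Promoter sequences of a few members are shown because they hold letters for factors known to act on nutrient and mitochondrial genes. Each window runs from 250 bases before to 50 bases after a RefSeq start on GRCm38.p6, is written 5′ to 3′ on the gene's strand, and has the matches in capitals. The matches are the E-box CACGTG (Slc25a13, Slc25a36 and Slc16a1), the cAMP response element TGACGTCA (Slc25a36), the Nrf1 core GCGCATGC (Slc16a1) and the amino acid response element core TGATGNAA, read on the opposite strand (Slc1a4).
Slc25a13, chr6:6217124-6217423, minus strand: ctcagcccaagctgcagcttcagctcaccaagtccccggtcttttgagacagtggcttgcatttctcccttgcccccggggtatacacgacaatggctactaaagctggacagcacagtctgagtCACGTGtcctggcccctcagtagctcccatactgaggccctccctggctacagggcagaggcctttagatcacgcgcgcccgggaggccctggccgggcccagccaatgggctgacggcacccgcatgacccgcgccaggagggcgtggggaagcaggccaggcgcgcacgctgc
Slc25a36, chr9:97110992-97111291, minus strand: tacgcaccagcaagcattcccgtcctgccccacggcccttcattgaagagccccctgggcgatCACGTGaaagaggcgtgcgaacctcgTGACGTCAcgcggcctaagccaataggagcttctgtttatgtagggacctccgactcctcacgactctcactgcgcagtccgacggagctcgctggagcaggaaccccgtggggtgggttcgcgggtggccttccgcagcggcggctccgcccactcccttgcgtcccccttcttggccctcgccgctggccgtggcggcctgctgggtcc
Slc16a1, chr3:104638414-104638713, plus strand: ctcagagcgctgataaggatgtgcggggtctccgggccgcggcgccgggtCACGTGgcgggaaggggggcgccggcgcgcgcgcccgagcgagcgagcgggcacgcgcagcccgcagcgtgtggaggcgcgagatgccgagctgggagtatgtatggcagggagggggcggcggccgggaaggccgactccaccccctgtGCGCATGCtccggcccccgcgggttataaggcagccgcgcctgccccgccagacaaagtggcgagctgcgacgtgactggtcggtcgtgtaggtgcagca
Slc1a4, chr11:20332664-20332963, minus strand: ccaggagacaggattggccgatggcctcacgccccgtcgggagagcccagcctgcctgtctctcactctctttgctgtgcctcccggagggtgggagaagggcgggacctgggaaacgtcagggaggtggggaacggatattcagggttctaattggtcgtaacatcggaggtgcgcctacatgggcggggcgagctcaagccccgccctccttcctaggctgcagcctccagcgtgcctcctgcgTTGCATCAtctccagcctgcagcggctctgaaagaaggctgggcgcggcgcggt
Promoters were found for 74 members, with 101 windows in all. An E-box, searched on both strands, stood in 25.0% of 20 windows of Slc25 members and in 13.3% of 45 windows of plasma membrane members, against 7.15% of all 32851 promoters in the table. The amino acid response core stood in 0.0% of the Slc25 windows and in 6.67% of the plasma membrane windows, against 3.97% of all promoters. The cAMP response element stood in 5.0% of the Slc25 windows and 0.0% of the plasma membrane windows, against 1.79% of all promoters. The Nrf1 core stood in 0.0% of the Slc25 windows and 2.22% of the plasma membrane windows, against 2.71% of all promoters. Windows of 1 gene can overlap, and a match says only that these letters are present. A link between any match and a change in level was not tested.

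Dicer1 was measured first as a check of the labels. Its level was 8.63%, 10.5% and 11.2% of day 0 on days 4, 8 and 10, 13.6% of day 0 in day 12 cytoplasm and 31.6% in day 12 nuclei, and in each the groups did not overlap (exact permutation test, two-sided p = 0.1, the smallest that 3 libraries against 3 allow). The whole cell libraries labelled day 12 held 89.7% of the day 0 level (exact permutation p = 0.3) and so go against their label. They are called the libraries labelled day 12 throughout. Day 12 fractions do not share this, so changes after Dicer loss rest below on day 10 of whole cells and on day 12 of the fractions. The libraries least like their own group were replicate 3 of day 0 nuclei (mean log2 correlation with its group 0.923), replicate 1 of day 12 nuclei (0.944) and replicate 3 of day 4 whole cells (0.946). Some of the counts and leading members they touch are also given without them. Others are not, among them the day 4 changes of single members and the day 0 class splits between nucleus and cytoplasm. Summed FPKM per library ran between 275545 and 459892, and 12218 to 14023 genes reached 1 FPKM. Relative depth was read from the commonest ratio of the smallest values to those of the first day 4 library, which itself came out at 0.997 because ratios were binned. It spanned 0.719 to 3.62 and was highest on day 0 of whole cells. Day 0 whole cell libraries stood at 3.06 to 3.62 and all later whole cell libraries at 0.719 to 1.12. In whole cell comparisons with day 0, depth and day therefore cannot be told apart. The embryonic stem cell marker Pou5f1 stood at 385 ± 20.1 FPKM on day 10 and 332 ± 15.8 FPKM on day 0, and Nanog at 196 ± 6.67 FPKM on day 10 and 211 ± 18 FPKM on day 0 (SD, n = 3 each). Of all 8 stem cell markers, 1 was higher on day 10, against 27.7% of all genes, and 2 were lower, against 16.0%. Their summed level was 2352 to 2545 FPKM on day 10 and 2440 to 3068 FPKM on day 0.

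Among the 22 Slc25 members, levels were led by the ADP/ATP exchangers Slc25a5 (452.2 FPKM over the 15 whole cell libraries) and Slc25a4 (125.8 FPKM), followed by the glutathione carrier Slc25a39 (119.6), the phosphate carrier Slc25a3 (113.2) and the citrate carrier Slc25a1 (56.98). Plasma membrane levels were led by Slc3a2 (107.2 FPKM), the heavy chain that brings amino acid exchangers to the surface, the glucose transporter Slc2a3 (107.1), the glutamine transporter Slc38a2 (74.83), the large neutral amino acid exchanger Slc7a5 (66.22) and the cationic amino acid transporter Slc7a3 (46.48). The median level was 15.85 FPKM for Slc25 members, 13.91 FPKM for plasma membrane members and 7.262 FPKM for internal membrane members. Summed over its class, Slc25 held 1056 ± 26.2 FPKM on day 10 and 1069 ± 9.36 FPKM on day 0, and the plasma membrane class 968 ± 2.56 FPKM on day 10 and 1011 ± 44.4 FPKM on day 0 (SD, n = 3 each). The libraries of these days overlapped in both sums.

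Across the 5 labelled days, limma's F-test on log2(FPKM + 0.5) called 65 of 99 members at an adjusted p under 0.05, against 54.2% of all 15991 genes tested. By class it called 13 of 22 Slc25 members and 32 of 42 plasma membrane members. Without the libraries labelled day 12 it called 48. Leaving out single libraries gave 56 calls (without replicate 3 of the libraries labelled day 12) to 83 (without replicate 3 of day 4). All 6 plasma membrane carriers of zinc and other metals and 11 of 12 plasma membrane amino acid carriers were among the calls. In contrast, the phosphate carriers Slc20a1 and Slc20a2, the ADP/ATP exchanger Slc25a5, the ornithine carrier Slc25a15 and the glycine carrier Slc25a38 did not pass in the main fit. Every comparison with day 0 below shares the same 3 day 0 libraries.

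On day 10, 32 members were higher than on day 0, against 27.7% of all genes tested, and 18 were lower, against 16.0%. Slc25 members split 5 higher and 4 lower, with a median change of 0.00, and plasma membrane members 11 higher and 11 lower, with a median of 0.01, while the median over all genes was 0.09 (log2). Internal membrane members split 8 higher and 2 lower with a median of 0.26, and members of mixed or unclear location 7 higher and 0 lower. Among the 78 members above the level on every day, 22 were higher and 14 lower. Of the higher members 9 were under 5 FPKM on day 0 and so owe their place to later days, among them Slc4a11, Slc16a6, Slc27a3, Slc27a4, Slc35b4 and Slc35c1. Of the lower members 4 (Slc2a8, Slc27a1, Slc35c2 and Slc52a2) were under it on day 10 and owe their place to other days, so the direction of these 13 is in part fixed by the choice of members. Scaling by the median of ratios gave 27 higher and 24 lower, and quantile normalization 26 and 24, with the median of all genes shifted by -0.09 and -0.17, so the excess of higher calls depends on the scaling. Under these scalings Slc25 members split 4 and 4 or 3 and 5, plasma membrane members 11 and 14 or 11 and 13, and internal membrane members 6 and 3 or 5 and 3.

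**Figure D1:**
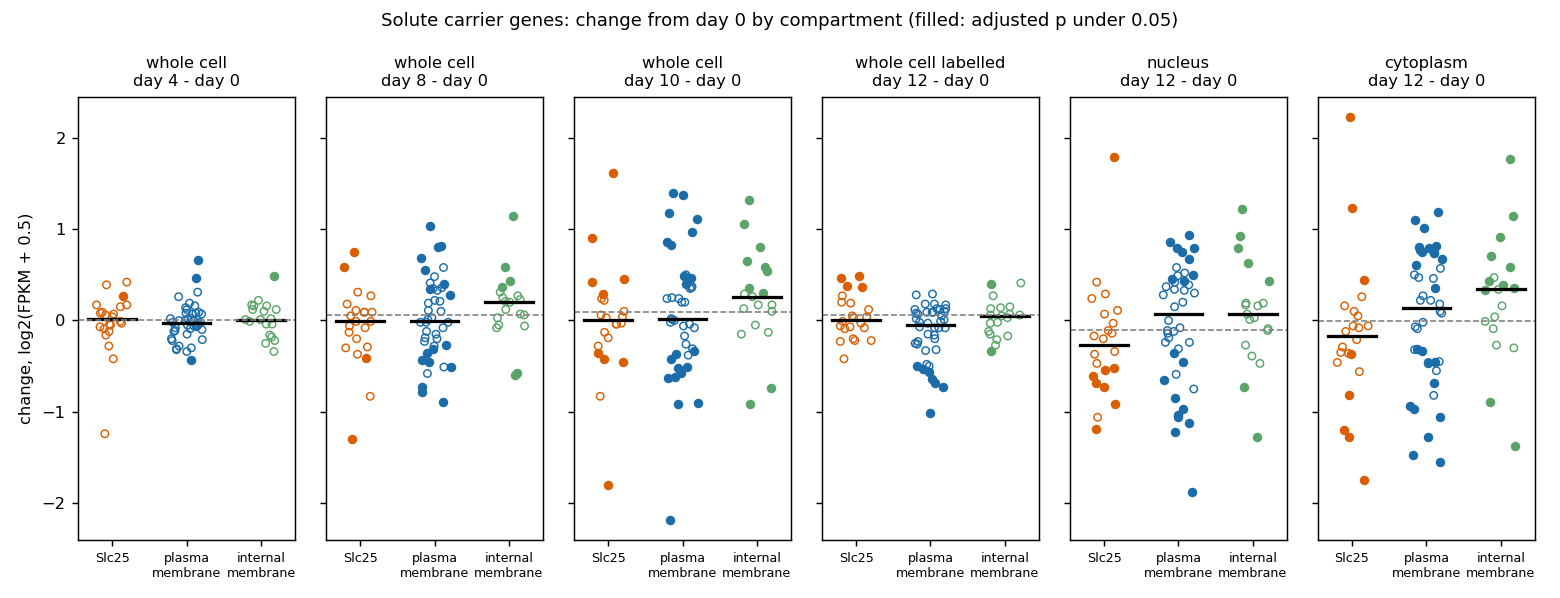
Change from day 0 (log2(FPKM + 0.5) scale) of each Slc25, plasma membrane and internal membrane member in 6 comparisons. Points are genes, filled where limma's adjusted p is under 0.05, black bars are class medians and the dashed line is the median of all genes tested. The Slc25 and plasma membrane medians of change stand together in whole cells. In the fractions they stand apart, at -0.27 and 0.08 in nuclei and -0.16 and 0.14 in cytoplasm. The difference of median levels per library, Slc25 minus plasma membrane, was lower on day 10 than on day 0 in whole cells too.

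The largest rise of any member on day 10 was that of Slc25a20 (ENSMUSG00000032602, GRCm38 chr9:108662088-108684641, plus strand), the carnitine and acylcarnitine carrier that lets long-chain fatty acids into mitochondria for oxidation. Its 3 libraries held 64.3, 64.4 and 61 FPKM on day 10, against 21, 20.2 and 20.1 FPKM on day 0. Day 4 libraries at 24.3, 25.2 and 24.5 FPKM and day 8 libraries at 36.6, 34.6 and 32.7 FPKM lay between, with no overlap between any of these days, and the libraries labelled day 12 stood at 20.9 to 21.5 FPKM. The change on day 10 was 1.61 ± 0.06 (log2, SE, limma adjusted p = 1.22e-09). In cytoplasm Slc25a20 held 101, 105 and 102 FPKM on day 12, against 21.6, 20.5 and 22.5 FPKM on day 0 (log2 change 2.23 ± 0.28, SE, limma adjusted p = 0.000193). Nuclei held 50.5, 84.9 and 77.3 FPKM on day 12, against 16.5, 13.8 and 33 FPKM on day 0. The nuclear groups did not overlap either, though each had 1 library well away from the other 2 (log2 change 1.79 ± 0.28, SE, limma adjusted p = 0.000844), and the change was 2.16 without replicate 3 of day 0 nuclei and 2.02 without replicate 1 of day 12 nuclei.

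Among other Slc25 members, Slc25a40, a mitochondrial glutathione carrier, held 25.7, 23.8 and 24.6 FPKM on day 10, against 14.5, 13.8 and 10.9 FPKM on day 0, with no overlap (log2 change 0.90 ± 0.10, limma adjusted p = 1.32e-05). Slc25a51, the NAD carrier (0.45), the branched-chain amino acid carrier Slc25a44 (0.42) and the aspartate-glutamate carrier Slc25a13 (0.29) were the remaining members that rose. The largest fall was that of Slc25a35, a mitochondrial carrier of unclear substrate, which held 6.37, 6.28 and 6.04 FPKM on day 10, against 23.1, 23.4 and 22.4 FPKM on day 0. It had 8.99, 10.4 and 7.92 FPKM on day 8, so every day 8 and day 10 library lay under every day 0 library (day 10 change -1.80 ± 0.12, limma adjusted p = 1.64e-07). The pyrimidine nucleotide carriers Slc25a33 (-0.46) and Slc25a36 (-0.42) fell too. The abundant exchangers did not pass the test on day 10, with Slc25a5 at 417 ± 13.3 FPKM on day 10 and 456 ± 3.84 FPKM on day 0 and Slc25a4 at 108 ± 6.17 and 105 ± 6.79 FPKM on the same days (SD, n = 3 each).

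For other mitochondrial membrane genes, a list of porins and import components had 1 higher and 8 lower of 22 tested on day 10, with a median of -0.25 (log2). Over all genes 27.7% were higher and 16.0% lower. The difference between that list and the Slc25 members was not tested.

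**Figure D2:**
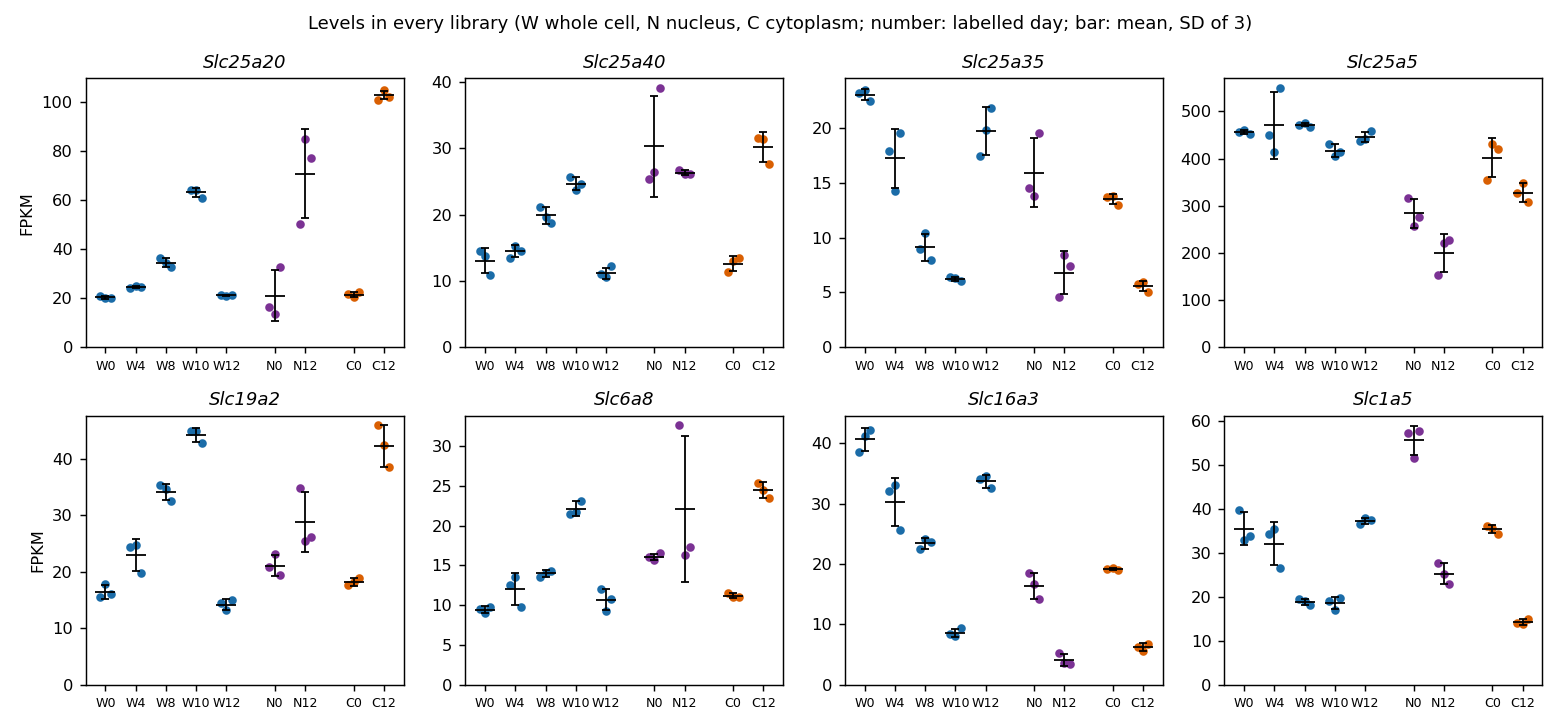
Level in FPKM of 8 members in all 27 libraries, as points, with the mean and SD of each group of 3. Labels give whole cell (W), nucleus (N) or cytoplasm (C) and the labelled day. Slc25a20, Slc25a40, Slc19a2 and Slc6a8 climb and Slc25a35, Slc16a3 and Slc1a5 decline over days 0 to 10, Slc25a5 has whole cell day means of 417 to 472 FPKM, and the libraries labelled day 12 (W12) lie near day 0.

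At the plasma membrane, the lactate transporter Slc16a3 (Mct4; ENSMUSG00000025161, GRCm38 chr11:120948480-120960868, plus strand) fell the furthest of all members on day 10. It held 8.45, 8.03 and 9.35 FPKM on day 10, against 38.5, 41.2 and 42.2 FPKM on day 0. Days 4 and 8 lay in between at 25.6 to 33 and 22.5 to 24.2 FPKM, again without overlap between days (day 10 change -2.18 ± 0.09, SE, limma adjusted p = 3.34e-09). Slc16a1 (Mct1), the monocarboxylate transporter whose promoter is printed above with an E-box and an Nrf1 core, held 23.5, 24.7 and 25.5 FPKM on day 10, against 33.8, 42.3 and 35.4 FPKM on day 0 (log2 change -0.58 ± 0.12, SE, limma adjusted p = 0.00127). Both plasma membrane monocarboxylate carriers in the set were lower on day 10, while their homologue Slc16a6, whose location is less clear, was higher at 10.2 ± 0.393 FPKM on day 10 and 4.73 ± 0.459 FPKM on day 0 (log2 change 1.04, limma adjusted p = 3.81e-05). The glucose transporter Slc2a3 did not pass at 93.8 ± 3.08 FPKM on day 10 and 113 ± 9.76 FPKM on day 0.

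Of the 12 plasma membrane amino acid carriers, 0 rose on day 10 in the main fit, against 27.7% of all genes, and 5 fell, against 16.0%. Slc1a5, the exchanger that takes up glutamine, held 19, 17.1 and 19.7 FPKM on day 10, against 39.8, 32.9 and 33.8 FPKM on day 0, and the groups did not overlap (log2 change -0.91 ± 0.11, limma adjusted p = 1.97e-05). The obligate partners Slc7a5 (-0.51) and Slc3a2 (-0.33), which form the exchanger of large neutral amino acids, fell together with Slc7a3 (-0.52) and the neutral amino acid carrier Slc1a4 (-0.37). The printed Slc1a4 promoter holds the amino acid response core, found in 6.67% of plasma membrane windows and 3.97% of all promoters. A link between this core and the fall was not tested. Slc7a5 held 52.4, 55.4 and 51.8 FPKM on day 10, against 64.7, 82.2 and 82.4 FPKM on day 0. The remaining 7 did not pass, among them Slc38a2 at 69.4 ± 2.73 FPKM on day 10 and 86.4 ± 1.49 FPKM on day 0, Slc7a1, Slc7a6, Slc7a7, Slc38a1, Slc6a6 and Slc6a15. Slc6a15, a neutral amino acid carrier, was instead highest on day 8, at 13 ± 0.88 FPKM, against 7.26 ± 0.642 FPKM on day 0 (log2 change 0.80 ± 0.13, limma adjusted p = 0.000525).

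Members that rose at the plasma membrane carry vitamins, creatine, nucleosides, ions and metals. The thiamine transporter Slc19a2 (ENSMUSG00000040918, GRCm38 chr1:164249046-164265385, plus strand) held 44.9, 45 and 42.8 FPKM on day 10, against 15.5, 17.9 and 16.1 FPKM on day 0. It was already above day 0 in all day 4 libraries (19.8 to 24.8 FPKM) and day 8 libraries (32.5 to 35.3 FPKM), and its day 10 change was 1.40 ± 0.09 (log2, SE, limma adjusted p = 1.35e-07). The creatine transporter Slc6a8 held 21.4, 21.7 and 23.1 FPKM on day 10, against 9.54, 8.96 and 9.79 FPKM on day 0 (1.18 ± 0.12, limma adjusted p = 3.59e-06). The groups of both genes stood apart. Slc4a11, a bicarbonate-family member that passes protons and water, rose by 1.37, the potassium-chloride cotransporter Slc12a4 by 0.97 and the nucleoside transporter Slc29a1 by 0.47 (log2). Among 6 carriers of zinc and other metals, the zinc importer Slc39a6 (1.11), the magnesium carrier Slc41a1 (0.86) and the copper importer Slc31a1 (0.48) rose, and the zinc importer Slc39a10 fell (-0.90). Other falls were those of the riboflavin transporter Slc52a2 (-0.62), the bicarbonate cotransporter Slc4a7 (-0.42) and the fatty acid transport protein Slc27a1 (-0.63). The last was lost without replicate 1 of day 0 (adjusted p = 0.0702) or replicate 3 of day 10 (adjusted p = 0.0831). For the pumps and partner proteins of plasma membrane carriers, 7 of 18 tested were higher and 4 lower on day 10, with a median of 0.16. Over all genes 27.7% were higher and 16.0% lower.

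Among the 7 internal nucleotide sugar carriers, 4 rose on day 10 in the main fit, against 27.7% of all genes, and 1 fell, against 16.0%. Slc35b4, which brings UDP-sugars into the secretory pathway, held 8.82, 9.01 and 7.75 FPKM on day 10, against 2.88, 3.35 and 3.09 FPKM on day 0. Its groups did not overlap (log2 change 1.32 ± 0.10, limma adjusted p = 3.63e-07), but it was under 5 FPKM on day 0. So was Slc35c1, the GDP-fucose carrier, at 8.38 ± 0.474 FPKM on day 10 and 3.77 ± 0.415 FPKM on day 0. Slc35a4 (0.65) and the sulfate donor carrier Slc35b2 (0.54) rose as well, while Slc35c2 fell to 2.84 ± 0.409 FPKM on day 10, against 5.79 ± 0.614 FPKM on day 0 (log2 change -0.92 ± 0.11, limma adjusted p = 1.56e-05). The glucose transporter Slc2a8 of internal vesicles also fell (-0.74). The fatty acid transport proteins split, with Slc27a3 (1.26) and Slc27a4 (0.80) higher, both under 5 FPKM on day 0, Slc27a1 lower and under 5 FPKM on day 10, and Slc27a2 at 0.01.

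Earlier days held fewer calls. On day 4, 4 members were higher, against 4.88% of all genes, and 1 was lower, against 1.82%. These were Slc4a11 (0.66), Slc35b4 (0.49), Slc19a2 (0.47) and Slc25a20 (0.27), with Slc16a3 lower (-0.43). All 5 calls were lost when only the days compared were fitted (adjusted p 0.173 to 0.315). Leaving out replicate 2 or 3 of day 0 kept 2 calls, and leaving out replicate 3 of day 4 gave 12 higher and 2 lower. Slc4a11 lost its call in 9 other fits (adjusted p 0.0557 to 0.315). On day 8, 19 members were higher, against 20.2% of all genes, and 14 lower, against 9.62%. With only these days in the fit 30 were higher and 20 lower on day 8, and the shares above are those of the main fit. The day 8 split was 17 higher and 18 lower with scaling by the median of ratios and 16 and 24 with quantile normalization. On day 8 the Slc25 members had 2 calls each way, among them Slc25a20 (0.75) and Slc25a35 (-1.30), and plasma membrane members 8 higher and 9 lower (5 and 14 with quantile normalization).

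In the libraries labelled day 12, 5 members were higher than on day 0, against 10.2% of all genes, and 8 lower, against 3.34%. These counts move with single libraries, being 0 and 5 without replicate 2 of day 0, 1 and 5 without replicate 2 of the libraries labelled day 12 and 2 and 5 without their replicate 3, and 7 and 14 with only these groups in the fit. The 4 higher Slc25 members were Slc25a4 (0.49), Slc25a39 (0.47), the oxoglutarate-malate carrier Slc25a11 (0.38) and Slc25a1 (0.37), and 0 were lower. Slc25a4 held 135, 150 and 157 FPKM in the libraries labelled day 12, against 104, 112 and 98.2 FPKM on day 0. Of the plasma membrane members 0 were higher and 7 lower, led by the metal importer Slc39a14 at 4.38, 4.23 and 4.08 FPKM in the libraries labelled day 12, against 7.69, 10.6 and 9.05 FPKM on day 0 (log2 change -1.01 ± 0.25, limma adjusted p = 0.0188). Each of the 4 Slc25 rises was lost in at least 2 other fits, and that of Slc39a14 in 4 (adjusted p 0.0537 to 0.0903). Scaling by the median of ratios or by quantiles gave 2 higher and 15 lower members in all, and 11 lower at the plasma membrane. Slc35b4, which rose on day 10, was lower here (-0.33).

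The trophoblast markers moved with these days: 5 of 6 were higher on day 10, against 27.7% of all genes, and 1 lower, against 16.0%. Their summed level was 513 to 549 FPKM on day 10 and 145 to 194 FPKM on day 0. In the libraries labelled day 12 it was 362 to 405 FPKM, above day 0. There 3 of 6 were higher, against 10.2% of all genes, and 0 lower, against 3.34%. In day 12 fractions the trophoblast sum was 392 to 433 FPKM in cytoplasm, against 219 to 232 FPKM in day 0 cytoplasm, and 652 to 800 FPKM in nuclei, against 434 to 723 FPKM in day 0 nuclei. Fibroblast markers summed to 9.75 to 10.8 FPKM on day 10 and 10.1 to 10.9 FPKM on day 0. Lum was at 0 on day 0, and 2 of 4 tested were higher and 1 lower on day 10. In nuclei the fibroblast sum was 9.34 to 23.6 FPKM on day 12, against 34.9 to 98.7 FPKM on day 0. Of 5 tested there, 1 was higher, against 15.1% of all genes, and 3 lower, against 21.6%. In cytoplasm the fibroblast sum was 3.83 to 4.58 FPKM on day 12, against 9.1 to 10.8 FPKM on day 0. Of 5 tested, 0 were higher and 1 lower. Endoderm markers summed to 3.21 to 3.66 FPKM on day 10 and 1.93 to 2.28 FPKM on day 0. Of 4 tested, 1 was higher and 0 lower on day 10. On day 4 the endoderm sum was 4.66 to 6.08 FPKM, with 3 of 4 higher, against 4.88% of all genes, and 0 lower, against 1.82%. Of the 8 stem cell markers, 0 were higher in day 12 cytoplasm, against 16.0% of all genes, and 2 lower, against 16.6%. Pou5f1 (0.07) and Nanog (-0.27) did not pass there. The stem cell sum was 1909 to 2032 FPKM in day 12 cytoplasm, against 3017 to 3074 FPKM in day 0 cytoplasm. In nuclei 0 of the 8 were higher and 1 lower, with sums of 1130 to 2956 FPKM on day 12 and 1952 to 4992 FPKM on day 0. The part of stem cells or of other cell types in the changes was not tested, and in bulk RNA a change in the number of cells of a type and a change in RNA per cell cannot be told apart.

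In the fractions, nucleus and cytoplasm were compared within a day. Values are relative within each fraction, so a higher nuclear FPKM says nothing about absolute amounts. The nuclear RNA Malat1 stood at 286 ± 113 FPKM in day 0 nuclei and 16.4 ± 1.23 FPKM in day 0 cytoplasm. At day 0, 30 members were higher in the nucleus, against 25.3% of 17124 genes tested, and 10 lower, against 16.4%. Slc25 members split evenly, 6 higher and 6 lower, plasma membrane members 10 and 2, and internal membrane members 9 and 0. Scaling by the median of ratios gave 23 higher and 16 lower over all members, 4 and 6 for Slc25, 9 and 5 at the plasma membrane and 7 and 1 in internal membranes. Quantile normalization gave 22 and 13 over all members, with the median of all genes shifted by -0.22. Without replicate 3 of day 0 nuclei the counts were 35 and 10. The fibroblast list was higher in day 0 nuclei, at 34.9 to 98.7 FPKM, than in day 0 cytoplasm, at 9.1 to 10.8 FPKM, with 4 of 5 tested markers higher, and its part in the nuclear values was not tested.

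The most nuclear member at day 0 was Slc50a1, a sugar carrier of the Golgi, with 28.5, 23.9 and 49.2 FPKM in nuclei, against 7.73, 8.32 and 6.99 FPKM in cytoplasm (log2 difference 2.01 ± 0.24, limma adjusted p = 0.00012). Every nuclear library was above every cytoplasmic one. Slc25a28, a mitochondrial iron importer, followed with 47.1, 50.5 and 80.7 FPKM in nuclei, against 17.4, 18.5 and 19.7 FPKM in cytoplasm (1.62 ± 0.18, limma adjusted p = 7.8e-05). Slc27a1 (1.47), Slc25a40 (1.21), Slc12a4 (1.18), Slc4a11 (1.14), Slc27a3 (1.07) and the choline transporter-like Slc44a2 (1.03) completed the members above 1 on this scale. Without replicate 3 of day 0 nuclei Slc50a1 stood at 1.71 and Slc25a28 at 1.38, and all 8 kept their calls, at 0.95 to 1.71. Further Slc25 members on the nuclear side were Slc25a38 (0.53), Slc25a3 (0.51), Slc25a36 (0.46) and the glutamate carrier Slc25a22 (0.36).

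On the cytoplasmic side at day 0 the lowest nuclear value was that of Slc25a13, the aspartate-glutamate carrier of the malate-aspartate shuttle. It held 19.4, 17.2 and 24.2 FPKM in nuclei, against 43, 44 and 44.6 FPKM in cytoplasm, with no overlap (log2 difference -1.11 ± 0.15, limma adjusted p = 0.000278). Slc7a5 had 35.4, 30 and 27.5 FPKM in nuclei, against 61.1, 58 and 56.7 FPKM in cytoplasm (-0.91 ± 0.12, limma adjusted p = 0.00016), although its partner Slc3a2 did not pass at 96 ± 9.42 FPKM in nuclei and 89.8 ± 3.64 FPKM in cytoplasm. Without replicate 3 of day 0 nuclei Slc25a13 stood at -1.24 and Slc7a5 at -0.84. Slc25a15 (-0.80), Slc16a1 (-0.77), Slc4a1ap (-0.59), Slc35g1 (-0.54), Slc25a5 (-0.50), Slc25a44 (-0.48), Slc25a4 (-0.40) and the second aspartate-glutamate carrier Slc25a12 (-0.34) made up the rest. The calls of Slc25a5, Slc25a4, Slc25a12, Slc25a44 and Slc35g1 were each lost under some other settings, with adjusted p for Slc25a5 at 0.0589 without replicate 3 of day 0 nuclei. Both Slc25a13 and Slc16a1 carry an E-box in the windows printed above, as does Slc25a36, which lies on the nuclear side. A link between the E-box and either side was not tested.

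At day 12, 24 members were higher in nuclei than in cytoplasm, against 18.4% of all genes, and 13 lower, against 15.7%. Slc25 members again split evenly, 5 and 5, and plasma membrane members 8 and 5. Without replicate 1 of day 12 nuclei the counts were 27 and 17 over all members, 6 and 5 for Slc25 and 8 and 8 at the plasma membrane. Slc27a1 (1.72), Slc2a8 (1.25), Slc50a1 (1.24) and Slc25a28 (1.09) led, and Slc7a5 (-1.06), Slc7a7 (-1.05), Slc25a4 (-1.02) and Slc25a13 (-0.92) stood at the other end, with the call of Slc7a7 lost in 8 other fits (adjusted p 0.0614 to 0.139). Slc25a4 held 61.4, 61.4 and 58.1 FPKM in day 12 nuclei, against 126, 134 and 111 FPKM in day 12 cytoplasm, and its difference was -1.04 without replicate 1 of day 12 nuclei. Across the 99 members the difference at day 0 had a Spearman correlation of -0.22 with the length of the longest coding transcript, and of -0.06 at day 12, as a description over genes that share libraries. Slc25 transcripts were the shorter, with a median of 2699 bases, against 3846 bases at the plasma membrane.

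**Figure D3:**
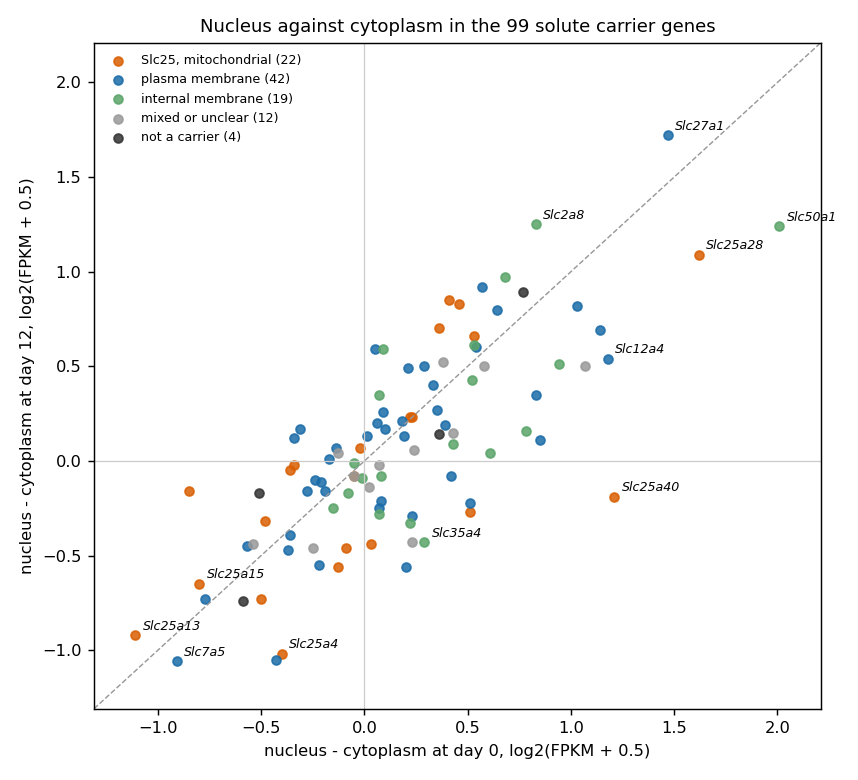
Difference between nucleus and cytoplasm at day 0 (horizontal) and at day 12 (vertical), on the log2(FPKM + 0.5) scale, for the 99 members coloured by location. Most members lie near the diagonal, while Slc25a40, at 1.21 on day 0 and -0.19 on day 12, lies far below it.

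The change of the nucleus to cytoplasm difference between days was called for 0 members in the positive direction, against 0.274% of all genes, and 2 in the negative direction, against 1.05%. These were Slc25a40 (-1.40 ± 0.21, limma adjusted p = 0.0162) and Slc35a4 (-0.72 ± 0.13, limma adjusted p = 0.028). Slc25a40 held 26.8, 26.1 and 26.2 FPKM in day 12 nuclei and 31.6, 31.4 and 27.6 FPKM in day 12 cytoplasm, and at day 0 it held 25.4, 26.4 and 39.1 FPKM in nuclei and 11.3, 13 and 13.5 FPKM in cytoplasm. Its cytoplasmic level rose (1.23), and the change in nuclei (-0.17) did not pass. Without replicate 1 of day 12 nuclei 18 members were called, without replicate 3 of day 0 nuclei 13, and without any 1 of the 3 day 0 cytoplasm libraries, or replicate 1 or 2 of day 12 cytoplasm, 0. Without replicate 1 of day 0 nuclei, replicate 2 or 3 of day 12 nuclei or replicate 3 of day 12 cytoplasm, 1 was called. Both genes have a pseudogene with a stretch of at least 200 bases at 95% identity or more, so reads could be shared.

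Between days, cytoplasm had 30 members higher at day 12 than at day 0, against 16.0% of all genes, and 21 lower, against 16.6%. Nuclei had 21 higher, against 15.1%, and 22 lower, against 21.6%. With only the groups compared in a fit these became 43 higher and 34 lower in cytoplasm and 10 higher and 11 lower in nuclei. Leaving out 1 of the cytoplasm libraries gave 35 to 37 calls in cytoplasm, fewer than the main 51. Nuclei had 19 higher and 25 lower without replicate 3 of day 0, and 24 and 23 without replicate 1 of day 12. In cytoplasm Slc25 members split 3 higher and 5 lower with a median of -0.16, and plasma membrane members 13 and 11 with a median of 0.14, against -0.01 over all genes. In nuclei Slc25 members split 1 higher and 7 lower with a median of -0.27 (2 and 4 with -0.18 without replicate 1 of day 12 nuclei, and 1 and 7 with -0.19 without replicate 3 of day 0 nuclei), and plasma membrane members 9 and 10 with a median of 0.08, against -0.10 over all genes. The class difference, Slc25 minus plasma membrane, was -0.30 in cytoplasm (-0.36 to -0.24 with single libraries left out) and -0.35 in nuclei (-0.46 to -0.16), while in whole cells it was -0.01 on day 10. The porins and import components were on the lower side in the fractions too, with 1 higher and 4 lower of 22 in cytoplasm (median -0.31) and 1 higher and 9 lower in nuclei (median -0.41). Plasma membrane pumps and partners had 6 higher and 5 lower of 19 in cytoplasm (median 0.22) and 4 each way in nuclei (median -0.14). The same difference of medians taken library by library was -0.12 ± 0.10 in day 12 cytoplasm and 0.11 ± 0.02 in day 0 cytoplasm, and -0.02 ± 0.19 in day 12 nuclei and 0.13 ± 0.49 in day 0 nuclei (log2 level, SD, n = 3 each). The nuclear groups overlap, since replicate 3 of day 0 nuclei stood at 0.702 and the other 2 at -0.172 and -0.13. In whole cells this difference of median levels was -0.21 ± 0.05 on day 10 and 0.1 ± 0.13 on day 0 (SD, n = 3 each). Every day 10 library lay under every day 0 library. Whole cells thus stand apart from the fractions in the median of changes but not in this measure. Summed Slc25 level was 782 ± 136 FPKM in day 12 nuclei and 991 ± 144 FPKM in day 0 nuclei, and 994 ± 30.6 FPKM in day 12 cytoplasm and 1062 ± 39 FPKM in day 0 cytoplasm.

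The fraction libraries have their own day 0 controls, so they can be set beside the whole cell changes. Of the 32 members higher in whole cells on day 10, 20 were higher in day 12 cytoplasm (62.5%, and 66.7% of the 30 there), and of the 18 lower, 13 were lower there (72.2%, and 61.9% of the 21). Over all genes these shares were 49.2% and 79.5% for higher calls and 62.3% and 56.2% for lower calls. Only 1 member was called in opposite directions, the copper importer Slc31a1, at 15.4 ± 0.712 FPKM in day 12 cytoplasm and 19.4 ± 1.07 FPKM in day 0 cytoplasm, but 18.5 ± 1.43 FPKM in day 10 whole cells and 13.1 ± 0.156 FPKM in day 0 whole cells. Its cytoplasmic call lay close to the threshold (log2 change -0.33 ± 0.12, SE, limma adjusted p = 0.0487). Nuclei shared 17 of the higher members (53.1%, and 81.0% of the 21 there) and 13 of the lower (72.2%, and 59.1% of the 22), with 0 in opposite directions. Over all genes these shares were 36.0% and 61.7% for higher calls and 62.2% and 43.1% for lower calls. For calls in opposite directions no share over all genes was taken.

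In cytoplasm the largest rises after Slc25a20 were those of Slc35b4 (1.77), Slc27a3 (1.41), the monocarboxylate transporter homologue Slc16a6 (1.27) and Slc25a40 (1.23). The largest falls were those of Slc25a30 (-1.75), a mitochondrial carrier, and of Slc16a3 (-1.55), Slc27a1 (-1.47), Slc35c2 (-1.37), Slc25a36 (-1.28) and Slc1a5 (-1.28). Slc16a3 held 6.29, 5.57 and 6.82 FPKM in day 12 cytoplasm, against 19.2, 19.3 and 19 FPKM in day 0 cytoplasm, and 5.31, 3.68 and 3.44 FPKM in day 12 nuclei, against 18.5, 16.7 and 14.2 FPKM in day 0 nuclei. Its libraries were apart in both fractions, as in whole cells. Slc1a5 held 14.1, 13.8 and 15 FPKM in day 12 cytoplasm, against 36.2, 35.6 and 34.4 FPKM in day 0 cytoplasm, and was likewise lower in day 12 nuclei (-1.12). Slc2a3 was lower in both, at 68.2 ± 0.412 FPKM in day 12 cytoplasm and 134 ± 2.7 FPKM in day 0 cytoplasm, but the cytoplasmic call was lost in 7 other fits (adjusted p 0.071 to 0.0783) and its day 0 nuclei ranged between 89.5 and 244 FPKM. Of the 12 plasma membrane amino acid carriers 3 were lower in day 12 cytoplasm (Slc1a5, Slc1a4 and Slc3a2) and 3 higher (Slc7a7 at 1.01, Slc7a1 at 0.77 and Slc38a1 at 0.61). The calls of Slc3a2 and Slc7a1 were lost in 7 other fits each.

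**Figure D4:**
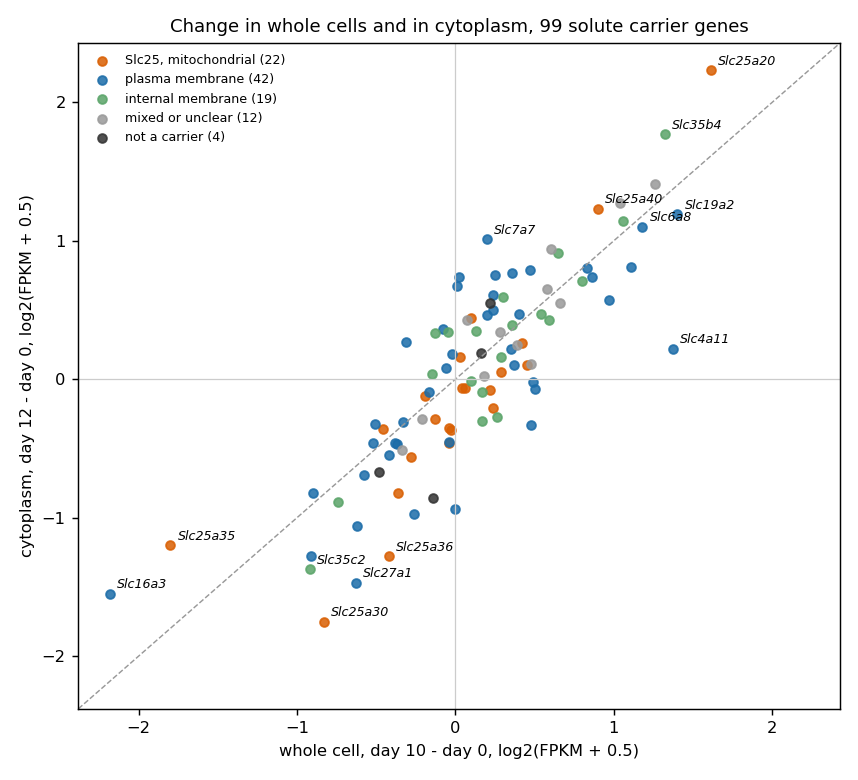
Change of each member in whole cells, day 10 against day 0 (horizontal), and in cytoplasm, day 12 against day 0 (vertical), on the log2(FPKM + 0.5) scale, coloured by location. Slc25a20 stands at the upper right at 1.61 and 2.23, Slc16a3 at the lower left at -2.18 and -1.55, and Slc4a11 at 1.37 in whole cells and 0.22 in cytoplasm.

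Slc25a3, which feeds phosphate to ATP synthesis, showed a different order in the fractions. It held 103, 104 and 104 FPKM in day 12 cytoplasm, against 72.9, 79.2 and 77.9 FPKM in day 0 cytoplasm (log2 change 0.44 ± 0.13, limma adjusted p = 0.0259), but the call was lost when any 1 of these 6 libraries was left out (adjusted p 0.0601 to 0.0896). In nuclei it did not pass, at 86.6 ± 5.78 FPKM on day 12 and 111 ± 21.8 FPKM on day 0. The ADP/ATP exchangers were lower in day 12 nuclei, with Slc25a5 at 153, 221 and 227 FPKM on day 12, against 317, 258 and 277 FPKM on day 0 (-0.52 ± 0.17, limma adjusted p = 0.0381), and Slc25a4 at 60.3 ± 1.93 FPKM on day 12 and 98.6 ± 17.9 FPKM on day 0 (-0.69 ± 0.13, limma adjusted p = 0.00291). The Slc25a4 change was -0.56 without replicate 3 of day 0 nuclei and -0.70 without replicate 1 of day 12 nuclei. The Slc25a5 call was lost in 7 of the other fits (adjusted p 0.0561 to 0.198), and 2 pseudogenes hold near-identical stretches of it.

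Of all members, 8 share a near-identical stretch of at least 200 bases with another gene, 4 overlap a small RNA gene on the same strand and 22 overlap an exon of an antisense gene. The libraries were directional, but no source used here gives the strand setting of the counting, so values of these members may include reads of their neighbours.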

How the data were processed

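Each of the 27 libraries has a file with 1 FPKM value per gene, which the authors deposited. TopHat2 2.0.9 and Cufflinks 1.3.0, with the build mm9, are listed in the submitters' processing notes. No source used here states the annotation, the strand setting or how reads with several matches were treated. Read totals were not used, so precision rests on the spread between replicates.

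Identifiers were matched to GENCODE M21 symbols (36253 of 38123 genes), and coordinates are those of GRCm38. The test, limma 3.58.1 under R 4.3.3 with a trended eBayes step, ran on log2(FPKM + 0.5), which understates changes of low genes. Genes under 0.5 FPKM in every group mean were dropped, and p was adjusted after Benjamini and Hochberg over all remaining genes (threshold 0.05). The 15 whole cell libraries made up 1 fit and the 12 fraction libraries another, and the method was tested on simulated data. Replicates are biological per the labels, without mention of separate cultures, so a p-value covers only the spread among these libraries, which may be technical. No libraries were identical.

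Members, locations, substrates and lists were chosen with earlier results of these data known, and no set test was made. Named members were the 10 largest called rises and falls without overlap on day 10 and between fractions at day 0, the 4 largest elsewhere, and a list of abundant carriers. Others named for a group were chosen after their values were seen. Alternatives covered the pseudocount, filter, scaling, replicate block, samples in the fit and each library left out. Shares over all genes are those of the main fits, and counts of members under alternatives are given without such a share. Leaving out the libraries labelled day 12, and testing protein-coding genes alone, were chosen after seeing the data. Values of some single members are not reported here, though the counts include them.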

Additional observations from a re-analysis of the deposited data

Results flagged for a closer look

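A pair of members had a nucleus to cytoplasm difference that changed between days by the test of the interaction in limma. For Slc25a40 the change, day 12 minus day 0, was -1.40 (log2, adjusted p = 0.0162), with differences of -0.19 at day 12 and 1.21 at day 0. For Slc35a4 it was -0.72 (adjusted p = 0.028), with differences of -0.43 at day 12 and 0.29 at day 0. Slc35a4 held 27.2, 24.6 and 24.7 FPKM in day 12 nuclei and 34.4, 34.3 and 34.8 FPKM in day 12 cytoplasm, and at day 0 it held 22.6, 24.3 and 20.3 FPKM in nuclei and 17.2, 18.8 and 18.7 FPKM in cytoplasm. The cause of either change was not tested.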

How the results depend on the processing

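Samples of different groups share replicate numbers, and the labels do not say whether same-numbered samples were paired. Of 24 correlations of same-numbered deviations 4 exceeded 0.1, and in no comparison did every pair do so. Such correlations cannot settle whether samples came from the same culture. With the replicate as a block the F-test called 63 members, day 4 called 5, day 8 called 31, day 10 called 50, the libraries labelled day 12 called 12, the nucleus against cytoplasm 34 at day 0 and 37 at day 12, cytoplasm 50, nuclei 43, and the change of the fraction difference 1 in place of 2. With only the groups compared in a fit, calls were 0 on day 4 (main 5), 50 on day 8 (33), 21 in the libraries labelled day 12 (13), 77 in cytoplasm (51) and 21 in nuclei between days (43), where fewer samples give the spread. Leaving out single libraries gave 24 to 28 calls on day 8 (main 33), 42 to 46 on day 10 (50) and 35 to 37 in cytoplasm (51). These ranges lie under the main counts. Such fits also gave 2 to 14 calls on day 4, 5 to 11 in the libraries labelled day 12 and 0 to 18 for the change of the fraction difference. The Slc25 minus plasma membrane median of that change, 0.01, ranged between -0.14 and 0.33, and that of the nucleus to cytoplasm difference at day 0, -0.13, between -0.31 without replicate 3 of day 0 nuclei and 0.03 without replicate 2. The cause was not tested. Of 121 calls of single members, 86 held under every alternative run and 35 were lost under at least 1. None changed sign while called. With 3 libraries a group, changes under about the replicate spread were not detectable.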
